A study of Mus musculus with 3 samples.

Results

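The cells described here are the Otos-rich fibrocytes of the mouse cochlea at postnatal day 7 (P7), chosen from 1 single-cell library by their own measured levels. A member had at least 500 detected genes, at most 20% mitochondrial transcripts, no transcript of Epcam, Cdh5, Sox10 or Ptprc, at least 1% of its UMIs (unique molecular identifiers, 1 per captured RNA molecule) from Otos, and under 0.3% from Emilin2. Of 8141 barcodes at P7, 7262 passed the first 2 limits, 4591 of those also lacked the 4 excluded genes, and 726 of the 4591 were members. That is 15.8% of the filtered cells (exact 95% binomial interval 14.8% to 16.9%, counting error only). The whole series holds 15272 barcodes. The 3865 filtered P7 cells outside the set are called the other mesenchymal cells. That name rests on the limits above alone, so cells of other lineages can be among them.

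The study profiled whole cochleae of wild-type C57BL/6J mice, with 1 library of P7 and 2 of embryonic day 15 (E15). All cell types were taken, after enzymatic dissociation and a sort that removed debris, with the 10x Genomics 3′ kit. No source used here says how many animals went into a library, so E15 p-values do not measure the spread between animals. The edgeR p-values and standard errors at E15 come from 2 libraries and a spread pooled over genes. They do not measure a gene's own spread between these libraries. Median depth was 10325 UMIs per barcode at P7, and 13936.5 and 10398 in E15 replicates 1 and 2. The P7 library shared 6 barcodes with each E15 library, and the E15 pair shared 3.

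Fibrocytes are the connective tissue cells of the spiral ligament and spiral limbus. They take up potassium that leaves the hair cells and pass it through gap junctions toward the stria vascularis, which secretes it back into the endolymph. Otos encodes otospiralin, a small secreted protein of cochlear fibrocytes that is needed for normal hearing in mice. Car3 encodes carbonic anhydrase III, a cytosolic enzyme known mainly from muscle, liver and fat. Otor encodes otoraplin, a secreted protein of the MIA family, and Coch encodes cochlin, an abundant protein of the inner ear matrix that is mutated in the deafness DFNA9.

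In the annotation of build GRCm38, Otos is a protein-coding gene on the minus strand of chromosome 1, from 92644218 to 92648841. Car3 lies on the plus strand of chromosome 3, from 14863512 to 14872523, Otor on the plus strand of chromosome 2, from 143078473 to 143081713, and Coch on the plus strand of chromosome 12, from 51593341 to 51605771. The 250 bases before the RefSeq starts of Otos and Otor are printed because these were the most abundant named protein-coding transcripts of the set, and capitals mark a match to TATAAA. They are RefSeq sequences of GRCm38.p6, at chr1:92648842-92649091 on the minus strand for Otos and chr2:143078143-143078392 on the plus strand for Otor:
Otos: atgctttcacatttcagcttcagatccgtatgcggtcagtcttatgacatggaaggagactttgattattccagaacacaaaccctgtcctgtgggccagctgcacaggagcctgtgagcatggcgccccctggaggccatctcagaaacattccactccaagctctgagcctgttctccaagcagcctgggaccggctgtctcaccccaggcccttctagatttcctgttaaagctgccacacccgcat
Otor: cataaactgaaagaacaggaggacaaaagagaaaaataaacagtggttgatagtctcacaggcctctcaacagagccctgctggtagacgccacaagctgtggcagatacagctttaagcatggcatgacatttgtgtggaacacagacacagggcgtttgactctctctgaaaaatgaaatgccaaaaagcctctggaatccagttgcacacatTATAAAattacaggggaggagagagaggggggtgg
The Otor window held 1 TATAAA, beginning 35 bases before the start. Of 32851 promoters searched on both strands over the same length, 12.4% held it. The Otos window held no such match. Neither window held the letters CCAAT, which 33.8% of the same promoters held on one strand or the other. A match is a description of letters only.

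Otos dominated the members' RNA. It made up 1.01% of UMIs in the lowest member, a median of 4.43%, and 23.1% in the highest. Otor had a lowest, median and highest share of 0%, 2.65% and 9.05%, and 638 of the 726 members reached 1%. Car3 was at 0%, 1.07% and 6.33%. Coch was far lower, at 0%, 0.0352% and 1.68%, with 5 members at 1% or more. Otos was high because the rule asked for it, Car3 and Otor were abundant in most members without having been used to admit them, and Coch was not abundant. Otor was not confined to the members. It reached 1% in 574 of the 3865 other mesenchymal cells, where its median share was 0.102%. The 478 of these cells that did not pass the Emilin2 limit are called Emilin2-rich. Their median Otor share was 0.850%, and 187 of them reached 1%. Coch did not mark the members as plainly as the other markers. Its summed level was 648 CPM (counts per 1e+06 UMIs) in the members, against 874 CPM in the other mesenchymal cells, while its median share was higher in the members, at 0.0352% against 0.0101%, and a Coch UMI was found in 85.1% against 57.6% of cells. Median depth was 12317 UMIs in the members and 10987 in the other mesenchymal cells. Cells with a Ptprc UMI were taken as blood-lineage cells that should lack Otos. Their median Otos share was 0.0070%, 56.3% of them had an Otos UMI and median depth was 7125 UMIs. In the other mesenchymal cells the median was 0.0072%, and 59.2% had an Otos UMI, so a share of that size is read as background. Of those 3865 cells, 239 (6.18%) had Otos at 0.1% or more. The same held for 13 of the 135 cells with a Ptprc UMI (9.63%), of which 6 reached 1% and the highest 3.53%. A share of 0.1% therefore does not set the 239 cells apart from cells with a Ptprc UMI. A Ptprc UMI alone does not show that a cell lacks Otos of its own, so these 13 cells do not measure background.

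**Figure D1:**
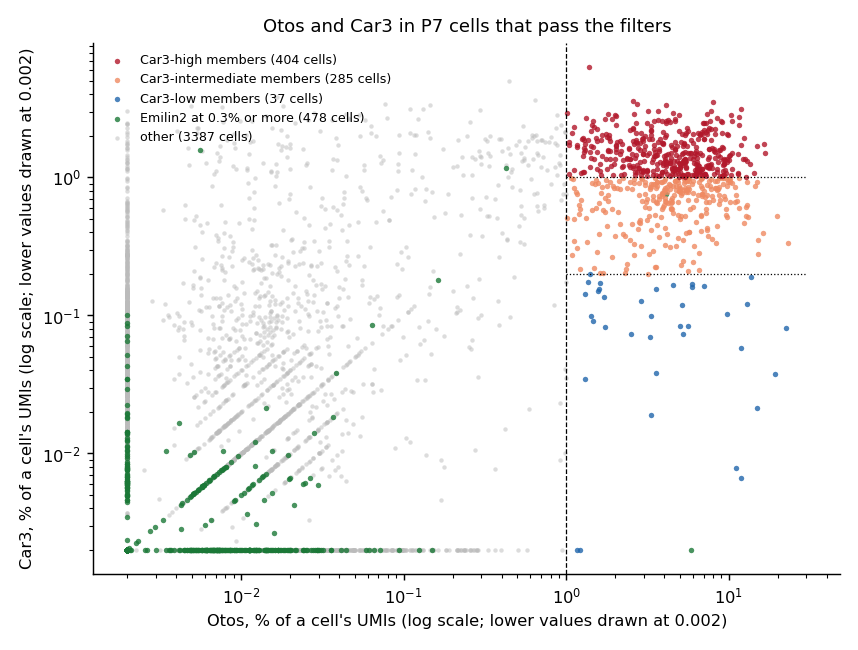
Each point is 1 of the 4591 filtered P7 cells, by its share of UMIs from Otos (horizontal, %) and Car3 (vertical, %), both on log scales. The dashed line is the 1% limit that chose the members and the dotted lines are the Car3 limits of 0.2% and 1%; the 404 Car3-high, 285 Car3-intermediate and 37 Car3-low members lie right of the dashed line, and 195 cells with Car3 at 1% or more lie left of it, apart from the Emilin2-rich cells.

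The Otos limit cut through a thinly filled range. Just inside it, 8 filtered cells had 1% to 1.1% Otos, with a median Car3 of 1.39%, and 13 had 1.1% to 1.2%, with 0.791%. Just outside it, 17 had 0.9% to 1%, with a median Car3 of 0.760%, and 9 had 0.8% to 0.9%, with 1.72%. The Emilin2 limit removed 2 cells that had Otos at 1% or more. Emilin2, which encodes an elastic-fibre glycoprotein and here stands for the tympanic border cells under the basilar membrane, was detected in 92 members and reached at most 0.136%. Of 827 P7 cells that passed the quality limits with Otos at 1% or more, 99 carried a UMI of an excluded gene and were left out. A filtered cell rich in Car3 was not always rich in Otos. Of 601 filtered cells with Car3 at 1% or more, 404 (67.2%, exact 95% interval 63.3% to 71.0%) were members, 195 had too little Otos and 2 were rich in Emilin2.

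The 4 markers given for these fibrocytes summed to 93562 CPM in the members and 7568 CPM in the other mesenchymal cells. Otos supplied 52263 CPM of the first sum and 313 CPM of the second, so the rule itself set much of this contrast. Of the 3 markers not used to admit members, Otor was at 28035 CPM against 5007 CPM and Car3 at 12616 CPM against 1373 CPM. Coch summed lower in the members, as given above. Several lists of markers of other cell types summed to little in the members. The 7 macrophage markers summed to 22.4 CPM, the 7 pericyte markers to 32.6 CPM, the 6 neuronal markers to 9.12 CPM and the 6 hair cell markers to 7.86 CPM, with no gene of these 4 lists at 0. The 8 epithelial markers summed to 50.7 CPM with Cldn6 at 0. Others were not low: the 6 decorin-rich fibroblast markers summed to 1736 CPM in the members against 4066 CPM in the other mesenchymal cells, the 7 Schwann cell markers, which include Fabp7, to 745 CPM against 643 CPM, and the 7 marginal cell markers, which include Slc12a2, to 355 CPM against 135 CPM. The 7 chondrocyte markers were at 2713 CPM in the members against 257 CPM in the other mesenchymal cells, carried by Ucma and Cnmd. Single cells stood apart: the highest member drew 42.2% of its UMIs from erythrocyte genes, another 8.72% from osteoblast genes, and another 1.80% from macrophage genes. The 422 P7 cells with the highest Scrublet doublet scores, a number set by an assumed doublet rate, included 34 members. By the classes described further on, these were 5 of the 404 Car3-high, 24 of the 285 Car3-intermediate and 5 of the 37 Car3-low members. High scores were thus more frequent among Car3-low than among Car3-high members. Scrublet's automatic threshold marked only 3 of 7262 cells.

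No P7 difference below has a test, because cells of 1 library are not replicates. A gene is called higher or lower where its summed levels differ at least 2-fold, reach 50 CPM in the higher group, and have exact 95% Poisson intervals that do not overlap, which covers counting error only. The members were chosen on Otos and Emilin2, so every gene that goes with those is a description. Between the members and the other mesenchymal cells, 3349 genes reached the level, apart from Otos, Car3 and Emilin2. Of these, 239 (7.14%) were higher in the members and 299 (8.93%) lower.

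The 12 genes with the largest folds upward in the members were of several kinds. Bcan, which encodes the proteoglycan brevican, was at 339 CPM in the members against 13.4 CPM in the other mesenchymal cells (25.3-fold). Vit, which encodes the matrix protein vitrin, was at 387 CPM against 20.8 CPM (18.6-fold), and the small secreted protein gene Cytl1 at 250 CPM against 13.6 CPM (18.4-fold). Cnmd, which encodes chondromodulin, an inhibitor of vessel growth in cartilage, was at 1124 CPM against 63.3 CPM. Ecrg4, the gene of a secreted peptide precursor, was at 9319 CPM against 538 CPM, and ranked ninth by level in the members. S100b, which encodes a calcium-binding protein best known from glia, was at 4279 CPM against 292 CPM. Cmtm5, Fbxo2, G0s2, Mia, Hhatl and Fzd9 complete the 12, with folds of 11.7 to 17.0.

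The genes with the largest folds downward included those of bone and vessel walls. All 8 osteoblast markers reached the level and all 8 were lower in the members, where 8.93% of all genes at the level were lower. Ibsp, which encodes bone sialoprotein, was at 137 CPM in the members against 4074 CPM in the other mesenchymal cells, and Bglap, which encodes osteocalcin, at 106 CPM against 2903 CPM. Rgs5, a pericyte gene, was at 7.44 CPM against 347 CPM, and Ifitm5, an osteoblast membrane protein gene, at 5.87 CPM against 283 CPM. Bglap2, Tgfbi, Ifitm1, Nkd1, Notum, Cdh11, Igfbp7 and Cavin2 were also lower, by 11.2-fold to 29.0-fold. Nkd1 and Notum, both feedback inhibitors of Wnt signalling, were most abundant in the Emilin2-rich cells, at 1295 and 987 CPM, against 19.3 and 15.8 CPM in the members. The other mesenchymal cells contain osteoblast-like and pericyte-like cells, so these folds depend on what the members are set against. Single cells among them drew up to 13.8% of their UMIs from Schwann cell markers. For melanocyte or intermediate cell markers the highest share was 11.9%, and for macrophage markers 4.91%.

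**Figure D2:**
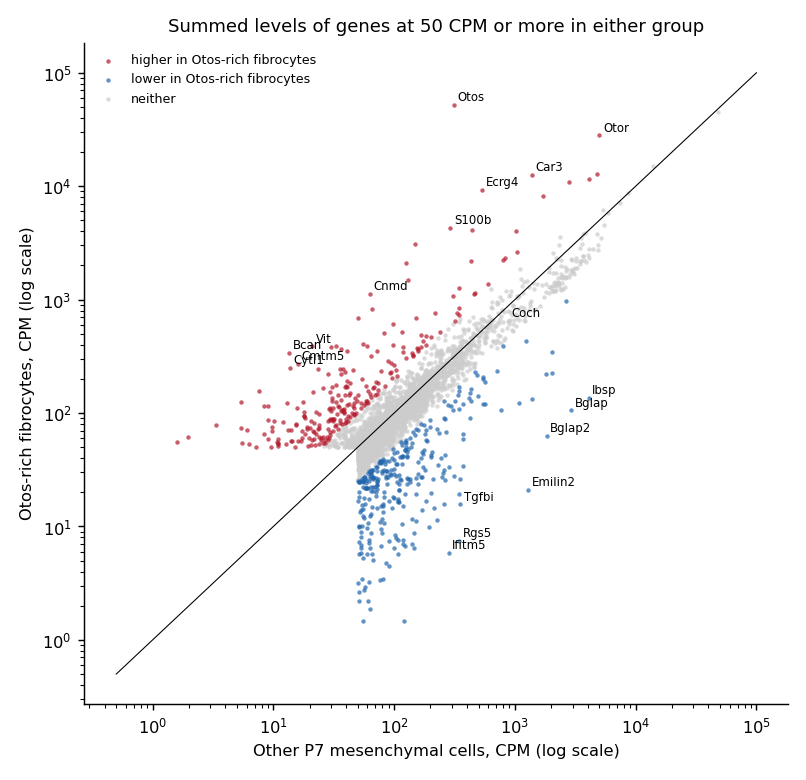
Summed levels (CPM, log scales) of genes that reached 50 CPM in the Otos-rich fibrocytes (vertical) or the other P7 mesenchymal cells (horizontal), with red for the genes called higher in the fibrocytes and blue for those called lower. Ecrg4 and S100b stand above the diagonal at 9319 and 4279 CPM in the fibrocytes, Ibsp and Bglap below it at 137 and 106 CPM; Otos, Car3 and Emilin2 are drawn but were used to choose the cells.

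Genes that cause hearing loss and act in the cochlear wall were called higher in the members more often than genes at large. Of 21 such genes other than Otos, 15 reached the level, 10 were higher and 0 lower, where 7.14% and 8.93% of all genes at the level were higher and lower, with a median log2 ratio of 1.48 against -0.16 over all genes that reached it. Col4a3, Col4a4, Gjb2, Gjb6, Slc12a2, Col2a1, Col9a1, Col9a2, Col9a3 and Col11a2 were the 10. Gjb2, which encodes connexin 26 of the fibrocyte gap junctions, was at 608 CPM in the members against 97.3 CPM in the other mesenchymal cells (6.25-fold), and Gjb6, which encodes connexin 30, at 158 CPM against 60.8 CPM. Slc12a2, which encodes the sodium-potassium-chloride cotransporter NKCC1, was at 315 CPM against 64.1 CPM. The list shares the collagens with the next list.

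Collagens divided. Of 18 genes of fibrillar and associated collagens that reached the level, 6 were higher in the members (Col2a1, Col9a1, Col9a2, Col9a3, Col11a2 and Col16a1) and 6 lower (Col1a1, Col4a1, Col5a1, Col6a1, Col14a1 and Col15a1), where 7.14% and 8.93% of all genes at the level were higher and lower. Col2a1, the main collagen of cartilage, was at 12808 CPM in the members against 4750 CPM in the other mesenchymal cells, and Col9a3 at 8264 CPM against 1705 CPM. Col1a1, the main collagen of bone, was at 107 CPM against 763 CPM. The chondrocyte markers Acan, Cnmd and Ucma all reached the level and were higher, while Snorc, at 15.6 CPM against 28.6 CPM, did not reach it.

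Genes of transport and metabolism differed in both directions, beside 7.14% higher and 8.93% lower over all genes at the level. Of 15 genes of glutamate, creatine and lipid handling at the level, 6 were higher in the members, 2 were lower and 7 were not called. Of 13 carbonic anhydrase genes other than Car3, 3 reached the level: Car14, a membrane-bound form, was at 522 CPM in the members against 116 CPM in the other mesenchymal cells, Car2, the main cytosolic form, at 492 CPM against 166 CPM, and Car11 was lower. Of 10 ion transport genes that reached the level, 3 were higher and 3 lower. Slc1a3, a glutamate transporter gene, was at 367 CPM against 156 CPM and Kcnk1, a potassium channel gene, at 72.7 CPM against 18.8 CPM. Fabp7, a fatty acid binding protein gene of glia, was at 366 CPM against 36.6 CPM and Fabp5 at 9.86 CPM against 193 CPM. The 17 antioxidant and metal genes at the level gave 1 higher (Mt3) and 0 lower, and the 18 immediate early genes 0 higher and 1 lower (Atf3). All 3 cell cycle genes at the level (Hmgb2, Stmn1 and H2afz) were lower in the members.

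Among transcription factor and growth factor genes, more were lower in the members than higher, beside 8.93% lower and 7.14% higher over all genes at the level. Of 25 mesenchymal transcription factor genes at the level, Sox9, a regulator of cartilage, was higher at 427 CPM in the members against 174 CPM in the other mesenchymal cells, and 10 were lower. Runx2 and Dlx5, regulators of bone formation, were at 8.39 CPM against 101 CPM and 11.5 CPM against 141 CPM. Pou3f4, the X-linked deafness gene of the cochlear mesenchyme, was at 481 CPM against 357 CPM and was not called. Of 27 growth factor and inhibitor genes at the level, 3 were higher (Igfbp2, Bmp5 and Ccn1) and 13 lower. Igf1 was at 19.6 CPM against 202 CPM. Of 11 thyroid and steroid hormone genes at the level, Aldh1a1 was higher and Rora lower, shares near those over all genes.

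Within the set, 404 members (55.6%) had Car3 at 1% of UMIs or more, 37 (5.10%, exact 95% interval 3.61% to 6.96%) had under 0.2%, and 285 (39.3%) lay between. The classes are ranges of 1 value, not types: 58 members had Car3 from 0.9% to 1% and 57 from 1% to 1.1%, and 11 filtered members had 0.15% to 0.2% with 15 from 0.2% to 0.25%. Median depth was 14014 UMIs in Car3-high, 11176 in intermediate and 9565 in Car3-low members. Otos, which the rule held at 1% or more in every class, had lower quartiles of 2.68%, 2.88% and 1.58%. Its medians were 4.46%, 4.45% and 3.55%. Median Otor was 2.80%, 2.49% and 1.21%, and median Coch ran the other way, at 0.0252%, 0.0559% and 0.122%.

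**Figure D3:**
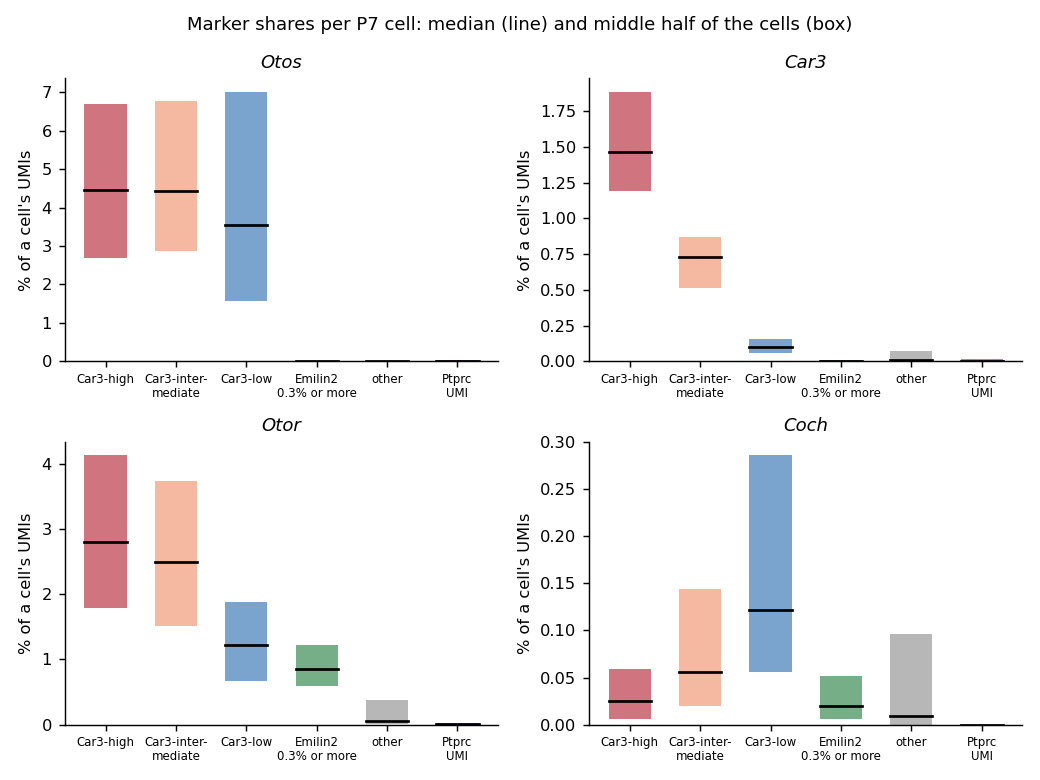
Share of a cell's UMIs (%) from Otos, Car3, Otor and Coch in the 3 Car3 classes of the fibrocytes, in Emilin2-rich cells, in the remaining filtered cells and in cells with a Ptprc UMI; lines are medians and boxes the quartiles. Median Otos was 4.46%, 4.45% and 3.55% in the Car3-high, intermediate and low classes, and median Coch was 0.0252%, 0.0559% and 0.122%.

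Between Car3-high and Car3-low members, 3187 genes reached the level. Of these, 142 (4.46%) were higher in Car3-high members and 248 (7.78%) lower. The rule used Car3 for this split, and the Car3-low sums rest on 373091 UMIs of 37 cells against 5836719 UMIs of 404 cells. Single cells could weigh on the low sums. For the genes named as higher below, 1 cell held 14.3% to 48.8% of the Car3-low UMIs, lowest for Ptgds and highest for Mia. For the 12 genes named as lower, it held 11.5% (Ank2) to 32.3% (Nupr1).

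On the upward side the largest fold was that of Cytl1. It was at 282 CPM in Car3-high members, from 210 of 404 cells, and at 10.7 CPM in Car3-low members, from 4 UMIs in 4 cells (26.3-fold). Fbxo2, which encodes a ubiquitin ligase subunit that binds glycoproteins and is known from the cochlea, was at 2626 CPM in Car3-high members against 383 CPM in Car3-low members (6.85-fold). Ecrg4 was at 11607 CPM against 2833 CPM, and 1 low cell held 39.4% of its Car3-low UMIs; without that cell the low level was 1885 CPM. Mia, the melanoma inhibitory activity gene of cartilage, was at 1065 CPM against 214 CPM, and 121 CPM without 1 low cell. Car14 was at 614 CPM against 166 CPM, and Sgk1, which encodes a kinase that regulates ion channels, at 351 CPM against 96.5 CPM. Lbp, Abhd12, Iqgap2 and G0s2 were higher by folds that lie between those of Cytl1 and Sgk1. Ptgds, a prostaglandin synthase gene, was at 210 CPM against 37.5 CPM and at 1830 CPM in intermediate members, where 1 cell held 82.6% of its UMIs; without it the intermediate level was 323 CPM.

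On the downward side the largest fold was that of Wif1. Wif1, which encodes an extracellular Wnt inhibitor, was at 2.74 CPM in Car3-high members and 322 CPM in Car3-low members, where 23 of 37 cells held its 120 UMIs and no cell more than 15.8% of them. Gdf10, of the TGF-beta family, was at 5.83 CPM against 209 CPM, and the imprinted genes H19 and Igf2 at 23.1 CPM against 606 CPM and 93.5 CPM against 898 CPM. Ncam1, a cell adhesion gene, was at 25.7 CPM against 279 CPM. Coch was at 350 CPM in Car3-high members, 912 CPM in intermediate members and 2970 CPM in Car3-low members (8.50-fold between the outer classes), with 34 of 37 low cells positive and 20 at 0.1% or more. Without the cell holding most Coch UMIs the low level was 2514 CPM. Mgp, which encodes an inhibitor of calcification, was at 73.7 CPM against 574 CPM. Nupr1, Ank2, Col1a1, Hpgd and Eng were also lower, and the intermediate members lay between the outer classes for all 12 genes. These genes were not confined to Car3-low members. Without thinning, a Wif1 UMI was found in 62.2% of Car3-low members and 81.0% of Emilin2-rich cells. For Gdf10 it was 48.6% of Car3-low members and 44.3% of the other mesenchymal cells, and for H19 59.5% and 28.1%. Emilin2 itself was detected in 9.65% of Car3-high and 29.7% of Car3-low members.

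**Figure D4:**
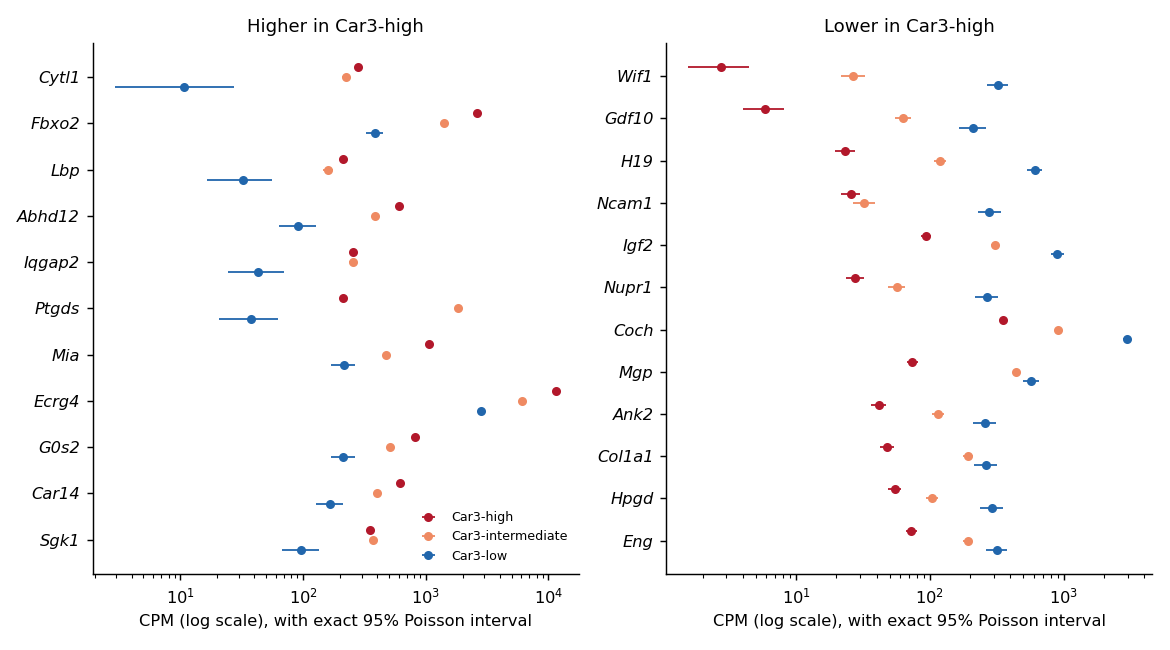
Summed levels (CPM, log scale) of genes with the largest folds in Car3-high, intermediate and Car3-low fibrocytes; bars are exact 95% Poisson intervals of the summed counts and cover counting error only. The intermediate class lies between the others for Wif1 (2.74, 26.7 and 322 CPM) and for Coch (350, 912 and 2970 CPM), and above both for Ptgds, where 1 cell holds most UMIs.

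Thinning each cell to 2000 UMIs left 361, 238 and 29 cells in the Car3-high, intermediate and low classes. A Wif1 UMI was then found in 0.554%, 7.98% and 44.8% of them, and an H19 UMI in 7.76%, 25.6% and 55.2%. For Fbxo2 the shares were 99.4%, 93.7% and 72.4%. For Cytl1 they were 39.9%, 24.4% and 0%, the last being 0 of 29 cells. Detection at equal depth therefore ordered these genes as their summed levels did.

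Over all genes at the level, 4.46% were higher in Car3-high members and 7.78% lower, so lower calls were the more frequent in general. Of 22 growth factor and inhibitor genes at the level, 10 were lower and 2 higher (Igfbp2 and Bmp5), with a median log2 ratio of -0.78 against -0.05 over all genes at the level. Of 25 matrix glycoprotein and proteoglycan genes at the level, 11 were lower, among them Coch, Chad, Mgp, Fbln1, Fbln2, Lum and Acan, and 4 were higher (Otor, Cytl1, Thbs1 and Nid2). Of 16 collagens 4 were lower and 0 higher, while Col2a1 was at 12543 CPM in Car3-high members against 13442 CPM in Car3-low members. Runx2 was at 1.03 CPM against 61.7 CPM and Dlx5 at 2.06 CPM against 88.5 CPM. Of the osteoblast markers, Col1a1 and Dmp1 were lower in Car3-high members. Ibsp, Bglap and Bglap2 were called higher, at 182, 137 and 85.8 CPM in Car3-high members against 18.8, 29.5 and 13.4 CPM in Car3-low members, but for each gene a single Car3-high cell held 46.5%, 79.2% and 78.8% of the UMIs. Without that cell the Car3-high levels were 97.5, 28.7 and 18.2 CPM, and at 2000 UMIs a Bglap UMI was found in 6.93% of Car3-high against 10.3% of Car3-low cells. The 8 summed to 498 CPM in Car3-high members and 496 CPM in Car3-low members. The 6 decorin-rich fibroblast markers summed to 1680 CPM against 3238 CPM, with Pi16 and Dpt at 0 in both; their part in the downward genes was not tested. None of the 18 immediate early genes at the level was called.

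Within the 628 members with at least 5000 UMIs, thinned to that depth, 566 genes were ranked by how they went with Car3 and with Otos across cells. These correlations share library and depth and carry no p. Fbxo2 (Spearman rho 0.61), Ecrg4 (0.55), Clu (0.47), Igfbp2 (0.45), Ucma (0.44), Mia (0.43), Cnmd (0.42) and Mdk (0.40) went with Car3 most closely. Cdkn1a (-0.41), Col27a1 (-0.41), Cthrc1 (-0.39), Col11a1 (-0.38) and Coch (-0.36) ran most strongly against it. Another set of genes went with Otos: S100b (0.43), Trf (0.38), which encodes transferrin, Apod (0.32), Prnp (0.28) and Gjb2 (0.24). No gene was among the 8 closest to both.

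At E15 no cell met the rule, and Otos had 4 and 2 UMIs in the whole libraries of replicates 1 and 2. Its summed level was 52263 CPM in the P7 members, against 0.031 and 0 CPM in filtered E15 cells of replicates 1 and 2. Otor was at 28035 CPM in the P7 members, against 815 and 908 CPM in filtered E15 cells, Coch at 648 CPM against 45.5 and 50.4 CPM, and Car3 at 12616 CPM against 38.2 and 54.8 CPM. The E15 cells were then divided at a Car3 share of 0.05%, which gave 39 and 56 cells above it and 2050 and 2591 below. Median Car3 was 0.0766% and 0.0838% in the cells above, which is under the 0.2% limit of the Car3-low class at P7, and the cells below were 98.1% and 97.9% of all filtered cells, so these arms are not the P7 classes. The E15 libraries were not used to choose the P7 members, and this comparison has a test: edgeR's quasi-likelihood test on sums per library and arm, with the library as a block, adjusted p under 0.05 over 13842 genes and a fold of at least 2. It called 81 genes (0.585%) higher in E15 cells above the limit and 367 (2.65%) lower.

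Otor rose with Car3 at E15. It was at 4776 and 4416 CPM in E15 cells with Car3 at 0.05% or more, against 746 and 816 CPM in those below it (log2 difference 2.63 ± 0.06 SE, in both libraries). Cytl1 was at 20.2 and 23.7 CPM against 1.58 and 3.37 CPM (log2 difference 3.21 ± 0.48, edgeR adjusted p = 3.7e-09). Car14 was at 31.2 and 42.3 CPM against 16.2 and 14.8 CPM (1.36 ± 0.28, edgeR adjusted p = 6.2e-05, but 0.070 by DESeq2). Aqp1, a water channel gene, was at 84.1 CPM in Car3-high members against 8.04 CPM in Car3-low members at P7. At E15 it was at 53.3 and 72.2 CPM above the limit against 8.90 and 9.91 CPM below it (2.82 ± 0.25, edgeR adjusted p = 7.1e-26). Mgp and Ncam1 were lower in Car3-high members at P7 and fell at E15. Ncam1 averaged 56.2 ± 3.71 CPM above the limit and 147 ± 6.53 CPM below it (SD, n = 2 libraries each; log2 difference -1.33 ± 0.15 SE, edgeR adjusted p = 1.3e-15). Gdf10, Nupr1 and Col1a1 also fell, with 33, 6 and 4 UMIs above the limit. With a division at 0.1% and 0.01% Car3 the edgeR adjusted p was 0.52 for Car14 and 0.95 for Gdf10.

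Some genes went opposite ways at P7 and E15. Coch had a log2 ratio of -3.09 between Car3-high and Car3-low members at P7. At E15 it was at 99.2 and 80.9 CPM above the Car3 limit against 44.5 and 49.6 CPM below it (log2 difference 0.99 ± 0.18, edgeR adjusted p = 1.9e-06). Its E15 fold stayed just under 2, and with a division at 0.1% and 0.01% Car3 its edgeR adjusted p was 0.30. Lum, which encodes the proteoglycan lumican, was lower at P7 (-2.00) and rose at E15 (1.03 ± 0.11), and likewise Col14a1 (-2.16 at P7, 3.03 ± 0.40 at E15). The difference between the ages was not tested, since P7 has 1 library. Over the genes called at P7, 128 of the 142 higher in Car3-high members were tested at E15, of which 8 rose and 4 fell, where 0.585% and 2.65% of all genes tested rose and fell, with a median log2 difference of 0.18. Of the 248 lower genes, 233 were tested, 35 fell and 3 rose, with a median of -0.35, against -0.06 over all genes tested.

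**Figure D5:**
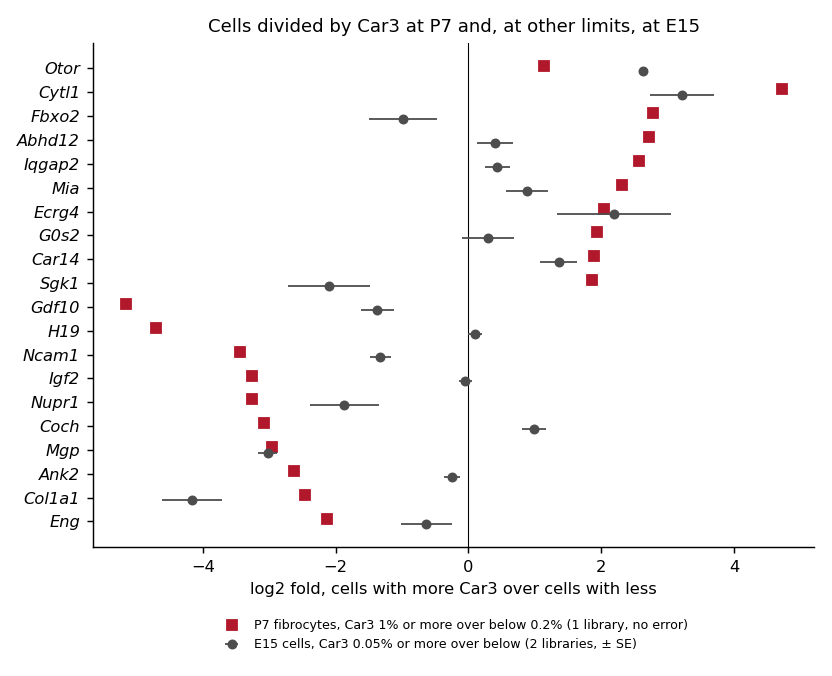
Log2 fold between Car3-high and Car3-low fibrocytes at P7 (squares, 1 library, no error), and between filtered E15 cells with Car3 at 0.05% or more and those below it (circles with the standard error from edgeR, 2 libraries), for Otor and genes of the P7 split with over 3 UMIs in the E15 cells above the Car3 limit. Otor, Cytl1 and Ncam1 lie on the same side of 0 at both ages, and Fbxo2, Sgk1 and Coch lie on opposite sides.

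The E15 cells below the Car3 limit are a mixture, so the downward count at E15 includes genes of other cell types. Nefl, a neurofilament gene, was at 7.35 and 4.98 CPM above the limit and at 121 and 137 CPM below it. The E15 fit had 1 residual degree of freedom and gave a gene's own spread no weight: Hba-a1, a haemoglobin gene, was called higher with 23.9 and 5314 CPM above the limit against 343 and 306 CPM below it, and DESeq2 did not call it.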

How the data were processed

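The deposited matrices, 1 a library, hold whole UMI counts that the authors had already restricted to called barcodes. Per the submitters' processing notes Cell Ranger 6.1.2 and GRCm38 (mm10) were used; the P7 matrix names software 3.1.0 and the E15 matrices 6.1.2, per the file headers. Genes were matched by Ensembl ID and named as in the E15 files (1228 symbols differ, and 958 P7 genes are not listed at E15). The members and lists were chosen with earlier results of these data known.

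UMIs were summed over cells and divided by the summed total (CPM). Intervals cover counting error only. A gene was named where it was among the 12 largest folds each way at 200 CPM or more, or in a list or marker set; some such genes are not reported here. Doublets were kept; removing the highest Scrublet scores (422 cells) is an alternative (the automatic threshold marked 3 of 7262 cells). At E15 a division at 0.1% and 0.01% Car3 left 12 cells in 1 arm, below the minimum of 20, so the listed alternative of 0.05% was used. Both arms come from the same library, which pairs them. Code ran in Python 3.11.15 (numpy 2.4.6, scipy 1.17.1, pandas 2.3.3, scanpy 1.11.5) and R 4.3.3 (edgeR 4.0.16, limma 3.58.1, DESeq2 1.42.0), and was tested on simulated data.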

Additional observations from a re-analysis of the deposited data

Results flagged for a closer look

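Of the 24 genes with the largest folds between Car3-high and Car3-low fibrocytes at P7, 20 had over 3 UMIs in the E15 cells above the Car3 limit, and 3 of these differed in the opposite direction in both E15 libraries. The difference between the ages was not tested. Coch had a log2 difference of -3.09 at P7 and 0.99 at E15. Fbxo2 had 2.78 at P7 and -0.99 at E15, where its 8 UMIs above the limit gave an edgeR adjusted p of 0.32. Sgk1 had 1.86 at P7 and -2.10 at E15, from 4 UMIs (edgeR adjusted p = 0.014, 0.53 by DESeq2).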

How the results depend on the processing

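The number of members ranged from 605 (Otos at 2% or more) to 794 (0.5% or more). Dividing the members at 0.5% Car3 called 84 genes higher and 147 lower in Car3-high members, and a fold of 3 called 67 and 115. Thinning to 2000 UMIs called 87 higher and 203 lower, of which 60 were among the 142 and 112 among the 248. With the 422 highest doublet scores removed, 132 of the 142 and 228 of the 248 were still called. That removal moved the values of 18 of the 48 named genes beyond the counting interval. With no minimum level 199 were higher and 623 lower. Against the other mesenchymal cells, a fold of 3 called 128 higher and 184 lower, and no minimum level 871 and 2186. Of 720 values of named genes under 15 settings, 140 moved beyond the counting interval and 0 changed sign. These genes were chosen for their large folds in the same data, so a change of sign was unlikely beforehand. A fold of 3 and no minimum level alter calls and not values, and left all 48 genes' values the same. Other Car3 limits bear only on the Car3 split. The counts therefore do not measure how steady the folds are. At E15, DESeq2 called 36 higher and 101 lower, the 0.1% and 0.01% division 63 higher and 156 lower, and single libraries, by size without a test, 30 to 35 higher and 107 to 141 lower. With the library pairing dropped (no replicate block) 99 rose and 370 fell. The cause was not tested. With 37 Car3-low cells, genes under about 50 CPM there rest on few UMIs.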
